A study of Mus musculus with 16 samples.

Results

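The genes described here are 7 mouse genes of zinc binding and zinc transport, namely the metallothioneins Mt1 and Mt2, the transcription factor gene Mtf1, the exporter family genes Slc30a1 and Slc30a2, and the importer family genes Slc39a1 and Slc39a14. Every array probe whose RefSeq accession belongs to one of them was taken, which gave 10 probes of 55681 on the array, and all 7 genes were among the 21280 genes tested. Metallothioneins are small, cysteine-rich proteins that bind zinc and copper in the cytosol. When free zinc rises, MTF-1 (the product of Mtf1) binds metal response elements in their promoters and in that of Slc30a1, while glucocorticoids and interleukin-6 signalling are also known to raise metallothionein transcription. Proteins of the SLC30 family move zinc out of the cytosol, and those of the SLC39 family move it in.

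Gene expression was measured in the quadriceps, a thigh muscle, of male mice aged 8 weeks on 1-colour Agilent arrays, with 1 array per mouse. The 4 groups were mFoxO-TKO mice fasted for 24 h, mFoxO-TKO mice with free access to food, WT (wild-type) mice fasted for 24 h and WT mice with free access to food, each with 4 mice. The mFoxO-TKO (mFoxO1,3,4-/-) animals lack FoxO1, FoxO3 and FoxO4, transcription factors active when insulin signalling is low, through a Cre recombinase under the human α-actin (HSA) promoter, so other cell types of the muscle keep these genes. RNA came from whole muscle, in which fewer cells of a type and less RNA per cell cannot be told apart. Measured over whole muscle, Foxo1 was lower by 3.39 ± 0.23 (log2) in fasted and by 1.76 ± 0.23 in fed mFoxO-TKO mice against WT mice (limma, adjusted p = 3.72e-07 and 0.00117), Foxo4 was at least 6.09-fold and 6.61-fold lower (adjusted p = 3.72e-07 and 1.29e-06). The Foxo3 probe did not pass, at -0.75 ± 0.26 in fasted mice (adjusted p = 0.0958) and at 0.73 ± 0.26 in fed mice (adjusted p = 0.294), where all mFoxO-TKO mice read above all WT mice, against the labelled loss. Whether that probe lies within the deleted part of the gene was not examined.

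A level is log2 of the processed signal over the 75th percentile of its array, so 0 marks a signal at that percentile, and levels of different probes are not compared. Changes are differences between 2 group means of these log2 levels ± the standard error that limma gave from all 16 arrays. A gene passed where its p-value, adjusted by Benjamini-Hochberg over the 21280 genes tested, was under 0.05. Replicates 1 and 2 of every group lay on slide 1 and replicates 3 and 4 on slide 2. The last number of the barcode in the file headers was the same for all arrays of a group and differed between groups. Whatever this number stands for on the slide cannot be told apart from group. On each array 45.0% to 75.2% of spots were well above background and 0 were saturated, and the 45.0% array (fasted mFoxO-TKO replicate 1) also had the most spots marked as uneven (3.28%). The 9 markers of muscle fibres, such as Acta1 and Ckm, were above background on all 16 arrays. By limma 0 of them passed in any comparison (0 at an unadjusted p under 0.05, medians from -0.09 to 0.15). Of all genes, 1.01% to 21.2% passed, depending on the comparison. The 4 liver markers were above background on 1 (Alb and Apoa1), 4 (Ttr) and 14 arrays.

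Promoters of both metallothionein genes and of Slc30a1 are shown because these are the genes best known to carry metal response elements. Each is a window of 300 bases on the + strand (250 before to 50 after a RefSeq start, build GRCm38.p6), and capitals mark the core of the element, TGCACNC or TGCGCNC, searched on both strands. The windows lie at chr8:94178839-94179138 (Mt1), chr8:94172368-94172667 (Mt2) and chr1:191906531-191906830 (Slc30a1). The start used lies 206 bases past the start of the gene for Mt1, 84 for Slc30a1 and 0 for Mt2. The windows therefore cover unlike stretches before the gene.
Mt1: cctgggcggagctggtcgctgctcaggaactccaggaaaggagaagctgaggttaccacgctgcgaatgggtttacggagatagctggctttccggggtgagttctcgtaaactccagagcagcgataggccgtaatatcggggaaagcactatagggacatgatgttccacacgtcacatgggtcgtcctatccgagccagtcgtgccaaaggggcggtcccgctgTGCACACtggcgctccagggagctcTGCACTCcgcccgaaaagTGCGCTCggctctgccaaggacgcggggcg
Mt2: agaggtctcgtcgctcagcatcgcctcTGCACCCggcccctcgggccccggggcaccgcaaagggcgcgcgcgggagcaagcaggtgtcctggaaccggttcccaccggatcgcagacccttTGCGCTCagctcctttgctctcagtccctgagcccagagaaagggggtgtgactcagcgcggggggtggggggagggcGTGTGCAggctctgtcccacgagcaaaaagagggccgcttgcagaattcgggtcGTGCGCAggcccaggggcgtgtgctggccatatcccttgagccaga
Slc30a1: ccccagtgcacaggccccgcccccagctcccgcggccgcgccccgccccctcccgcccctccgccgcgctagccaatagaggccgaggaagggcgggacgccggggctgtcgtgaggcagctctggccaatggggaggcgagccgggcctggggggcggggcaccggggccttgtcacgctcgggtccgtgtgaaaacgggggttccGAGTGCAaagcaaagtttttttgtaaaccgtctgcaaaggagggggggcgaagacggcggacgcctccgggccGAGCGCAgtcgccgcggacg
The Mt1 window held 3 cores, the Mt2 window 4 and the Slc30a1 window 2. All cores of the Mt1 and Slc30a1 windows lie past the start of the gene, within it. Those of the Mt2 window lie partly before and partly past it. Among 32851 mouse promoter windows of the same length, 25.7% held at least 1 core, 1.97% held 3 or more and 0.517% held 4 or more. RefSeq windows were found for 6 of the 7 genes. That of Slc30a2 held 2 cores, but its start lies 420 bases past the start of the gene, so the whole window lies within the gene. The windows of Mtf1 and Slc39a1 held 0. The FoxO letters TGTTTAC were in 0 of the 6 windows (3.65% of all windows) and TTCCNGGAA, the letters of a STAT site, in 0 (1.15%). The letters TGTTCT of a glucocorticoid receptor site were in 1, that of Mtf1 (18.97%). No found match overlapped another. A match is a description of the letters in this window, and where the letters are missing they are missing from this window only.

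Fasting was asked about first in each genotype. In fasted against fed mFoxO-TKO muscle 4 of the 7 genes rose and Mtf1 fell, in a comparison in which 8.73% of all genes passed (4.69% higher, 4.03% lower). In fasted against fed WT muscle 4 of the 7 rose and Mtf1 fell, where 21.2% of all genes passed (11.8% higher, 9.44% lower). The genes that rose were Mt1, Mt2, Slc30a2 and Slc39a14 in each genotype. The median change of the 7 was 1.23 in mFoxO-TKO muscle (0.07 over all genes tested) and 1.38 in WT muscle (0.03 over all genes). Slc30a1 and Slc39a1 did not pass in either genotype.

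**Figure D1:**
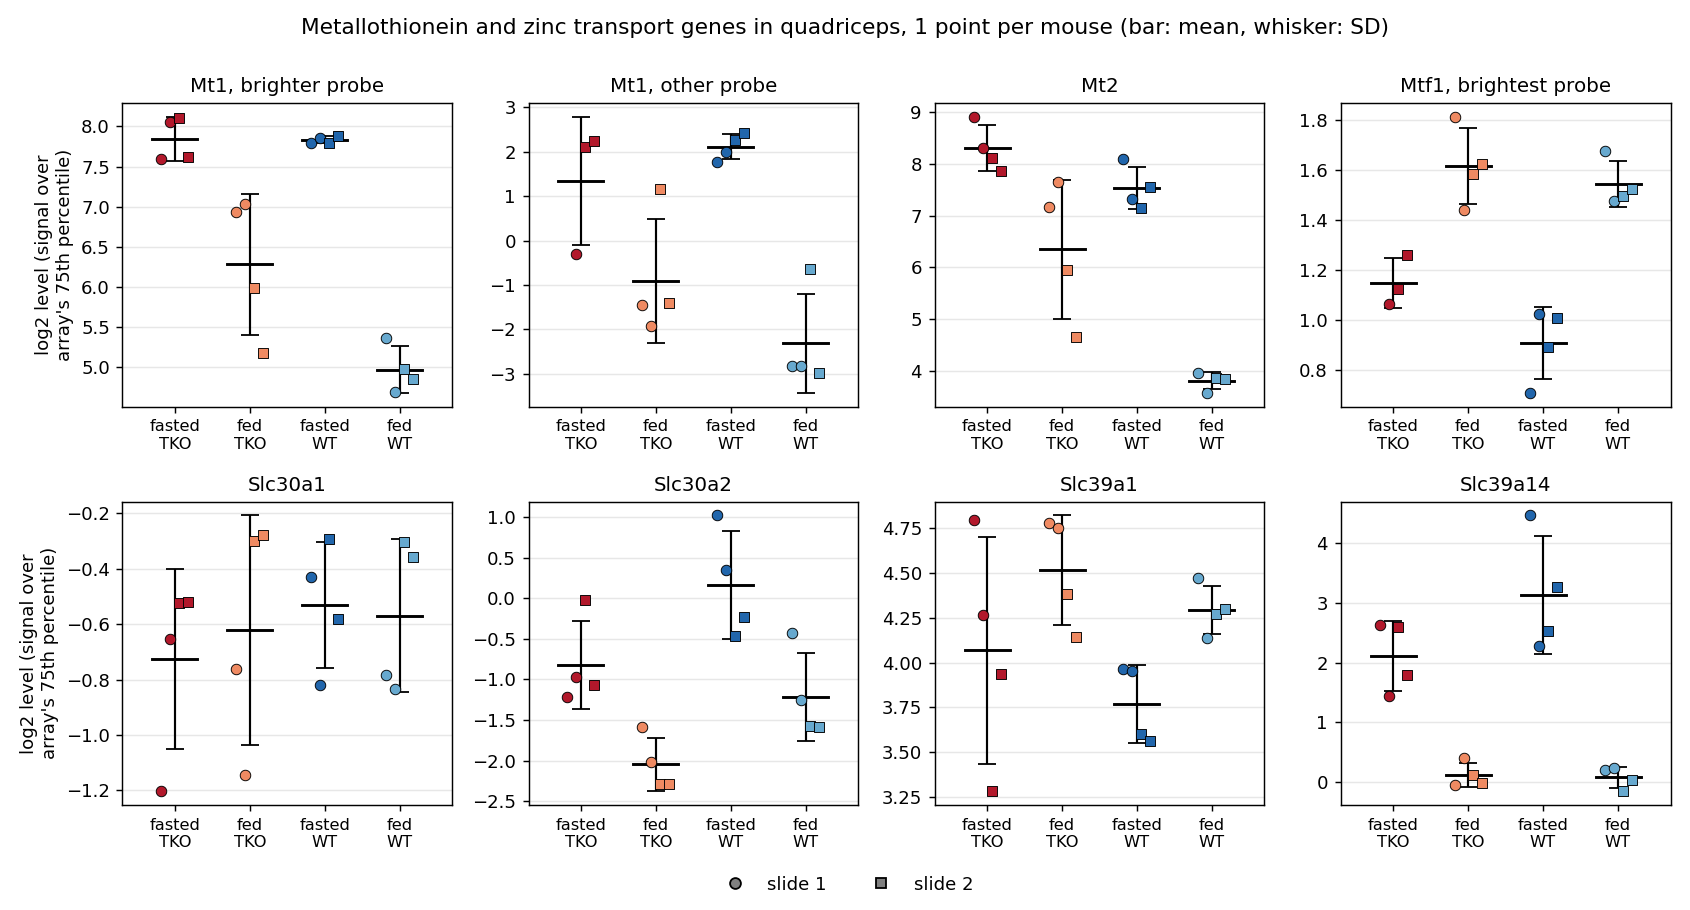
Log2 level over the array's 75th percentile (y axis) of each mouse in the 4 groups (x axis), for the brightest probe of each of the 7 genes and the other probe of Mt1. Circles are slide 1 and squares slide 2, bars are means and whiskers SD (n = 4, or 3 in fasted mFoxO-TKO mice for Mtf1 and the other Mt1 probe). Mt2 in fed mFoxO-TKO mice spans 4.64 to 7.64, above all 4 fed WT mice (3.57 to 3.95).

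Mt1 was the more even of the metallothioneins once mice were fasted. Its level by the brighter of 2 probes was 7.60, 8.05, 8.11 and 7.62 in fasted mFoxO-TKO mice, against 6.93, 7.03, 5.98 and 5.18 in fed mFoxO-TKO mice. All fasted mFoxO-TKO mice lay above all fed ones, and the fed mice on slide 1 lay above those on slide 2. In fasted WT mice the level was 7.79, 7.86, 7.80 and 7.88, against 5.37, 4.69, 4.98 and 4.85 in fed WT mice. These groups did not overlap, and the 4 fasted WT mice lay within 0.09 of each other. Mt1 rose with fasting by 1.56 ± 0.32 (2.96-fold, adjusted p = 0.00644) in mFoxO-TKO muscle and by 2.86 ± 0.32 (7.27-fold, adjusted p = 1.73e-05) in WT muscle. The mFoxO-TKO call was lost within slide 1 (0.84, adjusted p = 0.249, against 2.28, adjusted p = 0.0122, within slide 2) and with normexp and quantile normalization (1.12, adjusted p = 0.122). Within slide 1 few genes passed in this comparison at all, 116 of 19590, against 1797 of 20994 within slide 2.

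A dimmer Mt1 probe, of a predicted transcript, read -0.31, 2.11 and 2.25 in fasted mFoxO-TKO replicates 2 to 4, with the spot of replicate 1 left out as uneven. It read -1.45, -1.92, 1.15 and -1.40 in fed mFoxO-TKO mice, 1.77, 2.01, 2.27 and 2.43 in fasted WT mice, and -2.82, -2.81, -0.65 and -2.98 in fed WT mice. The fasted WT mice all lay above the fed ones, while the mFoxO-TKO groups overlapped. Its change was 2.25 ± 0.76 in mFoxO-TKO muscle (n = 3 fasted, adjusted p = 0.0854) and 4.43 ± 0.71 in WT muscle (adjusted p = 4.85e-04).

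By its probe, Mt2 changed more with fasting in WT mice than any of the other genes did by their brightest probe. Its level was 8.91, 8.32, 8.12 and 7.87 in fasted mFoxO-TKO mice, against 7.16, 7.64, 5.94 and 4.64 in fed mFoxO-TKO mice. The fasted mice all lay above the fed ones, with a gap of 0.23 between the nearest mice. In fasted WT mice it was 8.09, 7.32, 7.16 and 7.56, against 3.95, 3.57, 3.86 and 3.84 in fed WT mice, with a wide gap between the groups. Mt2 rose by 1.96 ± 0.47 (3.89-fold, adjusted p = 0.0173) in mFoxO-TKO muscle and by 3.73 ± 0.47 (13.2-fold, adjusted p = 5.85e-05) in WT muscle. The mFoxO-TKO call was lost within slide 1 (1.21, adjusted p = 0.182; 2.71, adjusted p = 0.0197, within slide 2), with dim probes included (adjusted p = 0.0506), and without fed mFoxO-TKO replicate 3 (1.82, adjusted p = 0.0549). Without fasted mFoxO-TKO replicate 1, the array with the fewest spots above background, the mFoxO-TKO change was 1.76 for Mt2 (adjusted p = 0.0418), 1.65 for Mt1 (adjusted p = 0.00780), 1.82 for Slc39a14 (adjusted p = 0.0111) and 1.36 for Slc30a2 (adjusted p = 0.0321).

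Mtf1 codes for the zinc-sensing factor that activates both metallothionein genes. Its brightest probe read 1.06, 1.12 and 1.26 in fasted mFoxO-TKO replicates 2 to 4 (replicate 1 left out as uneven), against 1.81, 1.44, 1.58 and 1.62 in fed mFoxO-TKO mice. It read 0.71, 1.02, 0.89 and 1.01 in fasted WT mice, against 1.68, 1.48, 1.49 and 1.52 in fed WT mice. Fasted mice lay below fed mice in each genotype without overlap. By this probe Mtf1 fell by 0.47 ± 0.13 (1.38-fold lower, n = 3 fasted, adjusted p = 0.0405) in mFoxO-TKO muscle and by 0.64 ± 0.12 (1.55-fold lower, adjusted p = 0.00184) in WT muscle. A second probe, above background on every array, changed by 0.02 ± 0.27 in mFoxO-TKO and by -0.01 ± 0.27 in WT muscle (adjusted p = 0.970 and 0.986), and the remaining probe was above background on 4 arrays and was not tested. The fall in Mtf1 rests on 1 of 3 probes. In mFoxO-TKO muscle it was not called in 16 of 26 other settings, among them 10 that left out 1 array, namely fasted mFoxO-TKO replicate 2, 3 or 4, fed mFoxO-TKO replicate 1, 3 or 4, fasted WT replicate 4 or fed WT replicate 2, 3 or 4 (changes from -0.52 to -0.40, adjusted p from 0.0509 to 0.117).

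**Figure D2:**
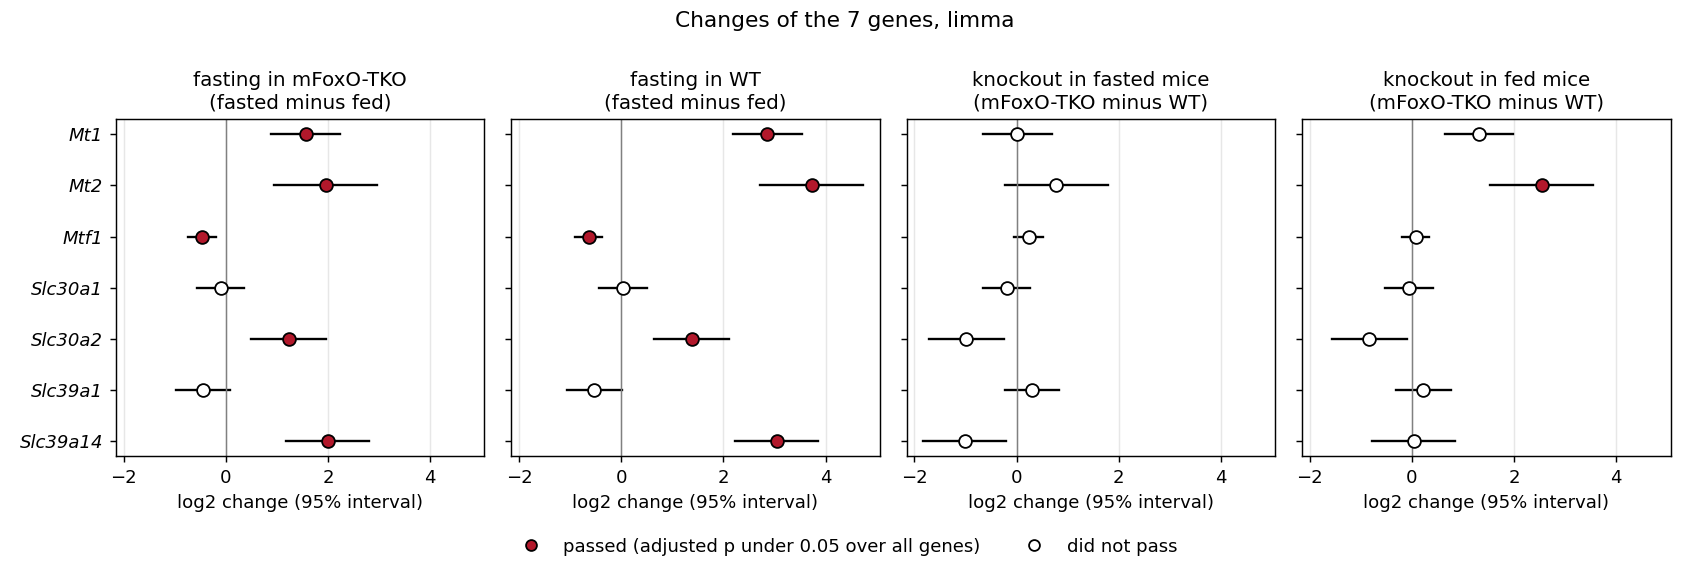
Log2 change of the 7 genes (points, limma) with its 95% interval (lines), for fasting in each genotype (fasted minus fed) and for the knockout in each feeding state (mFoxO-TKO minus WT). Filled points passed. Mt1, Mt2, Slc30a2 and Slc39a14 lie right of 0 and Mtf1 left of 0 in each fasting panel, and Mt2 in fed mice (2.54) is the only filled point of the knockout panels.

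Slc39a14 codes for ZIP14, which imports zinc and can also carry iron and manganese. Its level was 2.62, 1.44, 2.59 and 1.79 in fasted mFoxO-TKO mice, against -0.04, 0.41, 0.12 and -0.01 in fed mFoxO-TKO mice. It was 4.45, 2.27, 2.52 and 3.26 in fasted WT mice, against 0.20, 0.24, -0.15 and 0.04 in fed WT mice. The 8 fed mice fell in 1 narrow band whatever their genotype, and the nearest fasted mouse lay 1.03 above it. Slc39a14 rose by 1.99 ± 0.38 (3.97-fold, adjusted p = 0.00463) in mFoxO-TKO muscle and by 3.04 ± 0.38 (8.24-fold, adjusted p = 5.09e-05) in WT muscle. Within slide 1 the mFoxO-TKO change was 1.84 (adjusted p = 0.260), and within slide 2 it was 2.14 (adjusted p = 0.0213).

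Slc30a2 codes for ZnT2, which loads zinc into vesicles. Its level was -1.22, -0.97, -0.02 and -1.06 in fasted mFoxO-TKO mice, against -1.59, -2.02, -2.29 and -2.29 in fed mFoxO-TKO mice, without overlap. It was 1.02, 0.35, -0.47 and -0.24 in fasted WT mice, against -0.43, -1.25, -1.58 and -1.59 in fed WT mice, where the highest fed mouse lay just above the lowest fasted one. Slc30a2 rose by 1.23 ± 0.35 (2.34-fold, adjusted p = 0.0378) in mFoxO-TKO muscle and by 1.38 ± 0.35 (2.60-fold, adjusted p = 0.00964) in WT muscle. The mFoxO-TKO call was lost without any 1 of 7 arrays, namely fasted mFoxO-TKO replicates 2 to 4, fed mFoxO-TKO replicates 2 to 4 and fed WT replicate 2 (changes from 0.96 to 1.31, adjusted p from 0.0510 to 0.122), and within slide 1 (0.71, adjusted p = 0.412; 1.75, adjusted p = 0.0309, within slide 2). The WT call was lost within slide 1 (1.53, adjusted p = 0.0532; 1.23, adjusted p = 0.0406, within slide 2).

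Slc30a1 codes for ZnT1, the exporter of the cell surface and, with the metallothioneins, a classical MTF-1 target. Its level was -1.20, -0.65, -0.52 and -0.52 in fasted and -0.76, -1.14, -0.30 and -0.28 in fed mFoxO-TKO mice. It was -0.43, -0.82, -0.29 and -0.58 in fasted and -0.78, -0.83, -0.30 and -0.36 in fed WT mice. All 4 groups overlapped. The fasting change was -0.10 ± 0.22 (95% interval -0.57 to 0.36) in mFoxO-TKO muscle and 0.04 ± 0.22 (-0.43 to 0.50) in WT muscle, with adjusted p = 0.825 and 0.935, and its sign turned in several settings.

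Slc39a1 codes for ZIP1, a widely expressed importer of the cell surface. Its level was 4.79, 4.27, 3.28 and 3.94 in fasted and 4.78, 4.75, 4.38 and 4.14 in fed mFoxO-TKO mice, which overlapped. It was 3.97, 3.95, 3.60 and 3.56 in fasted and 4.47, 4.14, 4.27 and 4.30 in fed WT mice, which did not. Neither change passed, at -0.45 ± 0.25 (adjusted p = 0.320) in mFoxO-TKO and -0.52 ± 0.25 (adjusted p = 0.164) in WT muscle. The WT difference passed when arrays were scaled on probes above background on all arrays (-0.69, adjusted p = 0.0167), with normexp and quantile normalization (-0.73, adjusted p = 0.0340), in the authors' value table (-0.66, adjusted p = 0.00799) and when only the 2 WT groups were fitted (-0.52, adjusted p = 0.0285).

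Whether the knockout changed these genes in either feeding state was asked next, and these comparisons use the same arrays as those of fasting. In fasted mFoxO-TKO against fasted WT muscle 0 of the 7 genes passed (limma, 2 at an unadjusted p under 0.05), where 9.6% of all genes passed (4.73% higher, 4.86% lower). In fed mFoxO-TKO against fed WT muscle Mt2 passed, 1 of 7, where 1.01% of all genes passed (0.498% higher). The median change of the 7 was 0.01 in fasted and 0.07 in fed mice, against 0.04 and 0.01 over all genes tested.

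Mt2 was 5.83-fold higher in fed mFoxO-TKO than in fed WT mice (2.54 ± 0.47, adjusted p = 0.0148), and each of the 4 fed mFoxO-TKO mice lay above all fed WT mice. The difference was 3.64 within slide 1 (adjusted p = 0.00383), where 266 of 19590 genes passed. Within slide 2 it was 1.44 (adjusted p = 0.313), where 32 of 20994 genes passed. The call was lost when only the 2 fed groups were fitted (adjusted p = 0.0638), without fed mFoxO-TKO replicate 1 (2.27, adjusted p = 0.0561) and without fed WT replicate 2 (2.46, adjusted p = 0.0604). In fasted mice the Mt2 difference was 0.77 ± 0.47 (95% interval -0.23 to 1.78, adjusted p = 0.378).

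For Mt1 the fed difference of 1.31 ± 0.32 (2.48-fold) did not pass (adjusted p = 0.0664), and the lowest fed mFoxO-TKO mouse (5.18) lay below the highest fed WT mouse (5.37). It passed with slide as a block (adjusted p = 0.0387), within slide 1 (1.96, adjusted p = 0.0217; 0.66, adjusted p = 0.496, within slide 2) and without fed mFoxO-TKO replicate 4 (1.68, adjusted p = 0.00212). In fasted mice the 2 genotypes had Mt1 means of 7.84 ± 0.27 (mFoxO-TKO) and 7.83 ± 0.04 (WT; SD, n = 4 each), a difference of 0.01 ± 0.32 with a 95% interval of -0.66 to 0.68 (adjusted p = 0.989).

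Both metallothioneins had the same order of group means at the low end, with fed WT lowest and fed mFoxO-TKO next. For Mt1 the fasted groups could not be ordered beyond their spread. For Mt2 the means were 8.31 ± 0.44 in fasted and 6.35 ± 1.34 in fed mFoxO-TKO mice, and 7.53 ± 0.41 in fasted and 3.81 ± 0.16 in fed WT mice (SD, n = 4 each), and the fasted groups overlapped. By the Mt2 probe and the brighter Mt1 probe, the widest spread of each gene was within the fed mFoxO-TKO group.

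Macrophage markers also differed between the arrays of these fed groups. The summed level of 6 of 7 macrophage markers, in units of the 75th percentile, was 35.6, 36.5, 21.9 and 17.6 in fed mFoxO-TKO replicates 1 to 4, against 21.0, 18.5, 19.5 and 12.3 in fed WT replicates. The 2 fed mFoxO-TKO mice on slide 1 had the highest sums of all 16 arrays and also the highest Mt1 and Mt2 levels among fed mice. Between the fed groups 0 of the 6 tested markers passed by limma (3 at an unadjusted p under 0.05, median 0.74), where 1.01% of all genes passed. Cd163 was above background on 7 arrays. The summed level of 3 of 6 neutrophil markers was 76.33, 81.21, 112 and 98.74 in fed mFoxO-TKO replicates 1 to 4. It was 105.2, 106.7, 109.1 and 103 in fed WT replicates. The 2 fed mFoxO-TKO values on slide 1 were the lowest of all 16 arrays. By limma 0 of these 3 markers passed between the fed groups (0 at an unadjusted p under 0.05), and their median change was 0.43. That median has the same sign as the macrophage one. Endothelial, fibroblast, Schwann cell and smooth muscle sums were also lower on slide 1 than on slide 2 in fed mFoxO-TKO mice. Satellite cell and red blood cell sums were higher on slide 1 in these mice. Such a split between slides was not limited to them. Red blood cell sums were higher on slide 1 in every other group too. Macrophage and satellite cell sums were higher on slide 1 in each fasted group. In fasted against fed mice the macrophage median was -0.76 in mFoxO-TKO and -0.58 in WT muscle, with 1 of 6 lower in each. The 7 fibroblast markers had medians of -0.55 and -1.04, with 3 and 5 lower. Of all genes, 4.03% were lower in mFoxO-TKO and 9.44% in WT fasting. The part of these cells in the metallothionein levels was not tested.

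Mtf1 and the 4 transporter genes did not pass between genotypes. In fasted mice Slc39a14 differed by -1.02 ± 0.38 (adjusted p = 0.115) and Slc30a2 by -0.98 ± 0.35 (adjusted p = 0.0952) between mFoxO-TKO and WT muscle. Slc39a14 passed without fasted WT replicate 2 (-1.30, adjusted p = 0.0417), and Slc30a2 passed without fasted mFoxO-TKO replicate 3 (-1.25, adjusted p = 0.0323) and within slide 1 (-1.78, adjusted p = 0.0480; -0.19, adjusted p = 0.769, within slide 2). In fed mice Slc39a14 differed by 0.04 ± 0.38 (95% interval -0.77 to 0.84), and Slc30a2 by -0.83 ± 0.35 (adjusted p = 0.408), where the highest fed mFoxO-TKO mouse and the lowest fed WT mouse both read -1.59. Mtf1, Slc30a1 and Slc39a1 differed by at most 0.30 between genotypes in either state. In fasted mice the brightest Mtf1 probe read higher in mFoxO-TKO (n = 3) than in WT mice without overlap, with a gap of 0.042. That difference was 0.24 ± 0.13 (limma adjusted p = 0.315). By the second Mtf1 probe it was 0.002 ± 0.27, and the groups overlapped.

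The difference between the fasting effects of the 2 genotypes was tested directly as an interaction, mFoxO-TKO minus WT. In it 0 of the 7 genes passed (2 at an unadjusted p under 0.05), where 1.13% of all genes passed. The values were -1.77 ± 0.67 for Mt2 (95% interval -3.19 to -0.34, adjusted p = 0.309), -1.30 ± 0.45 for Mt1 (-2.25 to -0.35, adjusted p = 0.239) and -1.05 ± 0.54 for Slc39a14 (-2.20 to 0.09, adjusted p = 0.535). So the smaller fasting changes of these genes in mFoxO-TKO muscle were not shown to differ from those in WT muscle. Without fed mFoxO-TKO replicate 4, the mouse with the lowest Mt1 and Mt2 levels of its group, both passed (Mt2 -2.34, adjusted p = 0.0304; Mt1 -1.67, adjusted p = 0.0263).

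The wider zinc family was read from a list of 22 other metallothionein and SLC30 and SLC39 genes, 17 of which were tested. In mFoxO-TKO muscle 0 of the 17 passed with fasting (limma, 2 at an unadjusted p under 0.05, median -0.04), where 8.73% of all genes passed. In WT muscle 1 rose and 1 fell (median -0.16), a smaller share than the 21.2% of all genes. Without fasted mFoxO-TKO replicate 1 these counts were 3 in mFoxO-TKO and 4 in WT muscle. Over all settings they ran from 0 to 3 in mFoxO-TKO muscle and from 0 (within slide 1) to 6 (normexp and quantile normalization) in WT muscle. Slc30a5, which codes for ZnT5 of the secretory pathway, rose in WT muscle by 0.49 ± 0.13 (adjusted p = 0.0121), with levels of 0.70, 0.46, 0.54 and 0.83 in fasted and 0.16, 0.16, 0.07 and 0.19 in fed WT mice. Within slide 1 that change was 0.42 (adjusted p = 0.353). Slc39a12, known mainly from brain, was well above background on no fasted WT array and on all fed WT arrays, which made it at least 1.15-fold lower in fasted WT mice (adjusted p = 0.00918), a call lost within slide 1 (adjusted p = 0.0751).

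Between genotypes 1 of these 17 genes passed in fasted mice (higher; median 0.35; 4.73% of all genes were higher) and 0 in fed mice (3 at an unadjusted p under 0.05, median 0.15; 1.01% of all genes passed). Leaving out fasted WT replicate 4 made the fasted count 2, and leaving out fasted mFoxO-TKO replicate 1 or 3 made the fed count 1. The gene that passed in fasted mice was Slc39a12 again, above background on 3 of 4 fasted mFoxO-TKO arrays and at least 1.21-fold higher there than in fasted WT mice (adjusted p = 0.0134). That call was lost within slide 2 (adjusted p = 0.307) and when only the 2 fasted groups were fitted (adjusted p = 0.0831). Mt3 and Mt4, metallothioneins best known from brain and from stratified epithelium, did not pass in any comparison. The widest of their differences was that of Mt3 between fed mFoxO-TKO and fed WT mice (1.72 ± 0.66, adjusted p = 0.340), with levels from -1.49 to 1.53 in fed mFoxO-TKO mice and from -1.86 to -1.36 in fed WT mice.

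**Figure D3:**
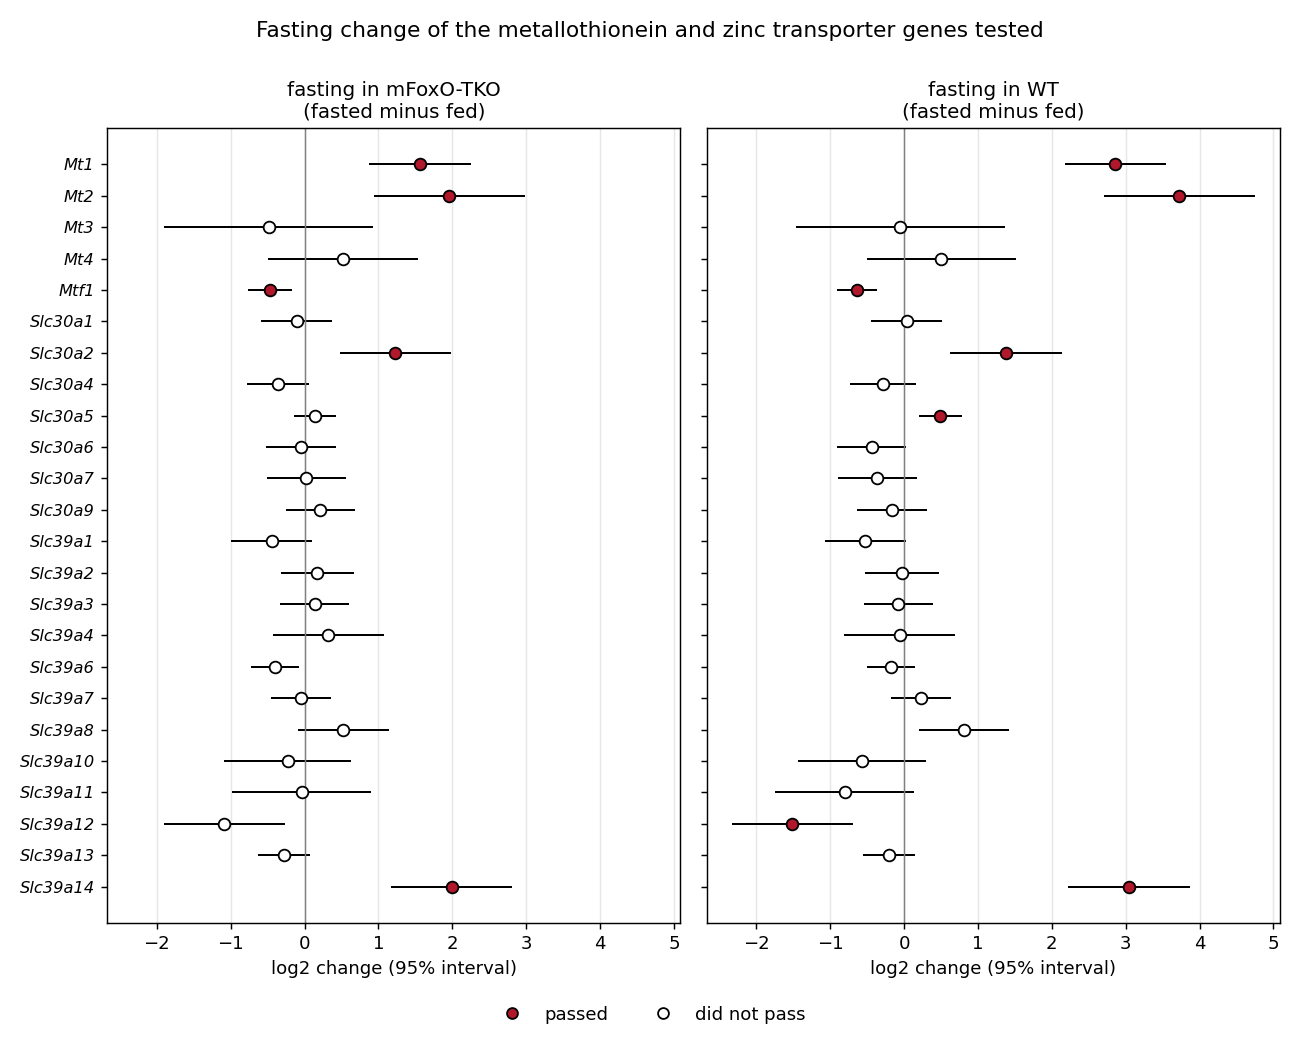
Log2 fasting change (points, limma, fasted minus fed) with its 95% interval (lines) of the 24 metallothionein, Mtf1, SLC30 and SLC39 genes tested, in mFoxO-TKO (left) and WT muscle (right). Filled points passed, and those furthest right in each panel are Mt1, Mt2, Slc30a2 and Slc39a14.

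Genes that followed Mt1 and Mt2 over the 16 arrays were sought among 12119 named genes by the root-mean-square difference of levels centred on each gene's mean, a description that carries no test. Nearest to Mt1 were Clec4d (0.547), Cyp1b1 (0.548), Eppk1 (0.595), Gpat3 (0.625) and Tent5b (0.634). Among the nearest to Mt2 were Clec4d (0.709), Cdkn1a (0.719), Odf3l2 (0.938) and Gpr179 (0.945), with Mt1 itself at 0.712. Clec4d codes for a C-type lectin of myeloid cells, and Cdkn1a for the cell cycle inhibitor p21. Cdkn1a is also 1 of the 12 glucocorticoid-responsive genes counted below. Clec4d changed with fasting by 1.01 ± 0.51 in mFoxO-TKO (adjusted p = 0.263) and rose by 2.74 ± 0.51 in WT muscle (adjusted p = 0.00131). Cdkn1a rose by 2.90 ± 0.26 in mFoxO-TKO (adjusted p = 2.11e-05) and by 3.47 ± 0.26 in WT muscle (adjusted p = 5.05e-07). Among the 7 genes the nearest to Mt1 after Mt2 was Slc39a14, at 0.879.

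**Figure D4:**
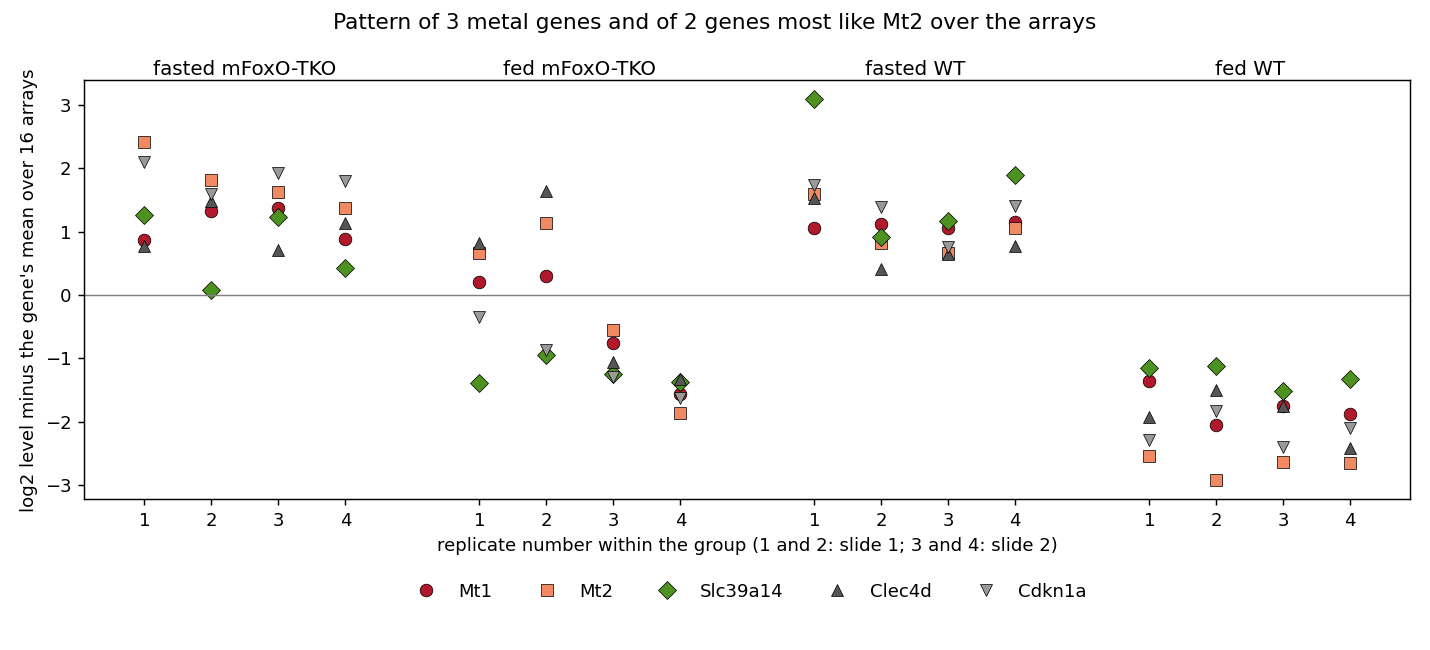
Log2 level minus the gene's own mean over 16 arrays (y axis) for Mt1, Mt2, Slc39a14, Clec4d and Cdkn1a, by replicate within the 4 groups (x axis, replicates 1 and 2 on slide 1 and 3 and 4 on slide 2). In fed mFoxO-TKO mice Clec4d stands at 0.83 and 1.64 on slide 1 and at -1.06 and -1.32 on slide 2, and Mt1 and Mt2 are also higher on slide 1, while Slc39a14 is low in all 8 fed mice.

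Because glucocorticoids and interleukin-6 are known inducers of metallothioneins, lists of their target and pathway genes were read in the same comparisons. Of all genes tested, 4.69% rose in fasted mFoxO-TKO muscle and 11.8% in fasted WT muscle. Of 12 glucocorticoid-responsive genes 7 rose in fasted mFoxO-TKO muscle (median 1.09) and 11 in fasted WT muscle (median 1.74), with Ddit4, an inhibitor of mTORC1, at 3.11 ± 0.44 and 3.88 ± 0.44 (adjusted p = 6.47e-04 and 2.13e-05). Of 12 tested genes of interleukin-6 signalling and the acute phase, 5 rose and 1 fell in fasted mFoxO-TKO muscle (median 0.66), and 8 rose and 1 fell in fasted WT muscle (median 1.41). Il6ra, the interleukin-6 receptor gene, rose by 3.12 ± 0.27 and 3.77 ± 0.25 (adjusted p = 5.53e-05 and 1.56e-06) in these genotypes. In fed mFoxO-TKO against fed WT muscle, the comparison in which Mt2 was higher, 0 of 12 passed on either list by limma (2 and 5 at an unadjusted p under 0.05, medians -0.16 and 0.62), against 1.01% of all genes. In fasted mFoxO-TKO against fasted WT muscle 0 glucocorticoid genes were higher and 2 lower (median -0.59). Of the interleukin-6 list 1 was higher and 3 lower there (median 0.27), against 4.73% and 4.86% of all genes. In the interaction 0 and 1 passed (Lcn2, 2.86 ± 0.62, limma adjusted p = 0.0348), against 1.13% of all genes. Several genes of these lists were already known to rise in these arrays when the lists were written, so their counts are a description.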

How the data were processed

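Cy3-labelled cRNA made from total quadriceps RNA was read on 1 Agilent mouse array per mouse, per the labels. The deposited processed signals are intensities from which background and a spatial trend had been removed array by array, per the file headers, by Feature Extraction 11.0.1.1, whereas the submitters' processing notes name version 9.5. The deposited median signals of spot and local background, intensities without correction per the file headers, served 1 alternative. Other deposited marks of 0 or 1 state, per the file headers, whether a spot was above background, saturated or an outlier. In the authors' value table, the 18324 scores of each array equal its processed signals after multiplication by 1 constant (within 2%) and rounding, so they are linear and not centred, with column medians from 22 to 25. Its direction and scale were found by that match, and it was used as an alternative.

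Of 59305 spots other than controls, repeats were averaged to 55681 probes. Symbols came from each probe's RefSeq accession through a table of GRCm38.p6, for 28331 probes, and probes without one were grouped by accession. The file headers name another build, mm9, so no coordinates but those of the RefSeq promoters are given. Spots marked as outliers were dropped (0.143% to 3.28% per array). Probes had to be well above background on all arrays of 1 group or more, and the brightest kept probe stands for a gene with several, which left 28570 probes and 21280 genes. At least 2 values per group were required for a test. Log2 signals minus each array's 75th percentile were fitted with limma 3.58.1 in R 4.3.3 (lmFit, eBayes, 4 group means, 12 residual and 3.22 prior degrees of freedom). The 5 contrasts share arrays, and the p-values cover only the spread among these mice. Where a gene was above background on no array of a group, the fold is a bound, the mean of the brighter group against the lowest signal well above background (or the dim probe's own, if higher) on the other arrays. The number of arrays limits the precision. The method was tested on simulated data.

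Named are the 7 genes with every probe, of the other zinc genes up to 4 that passed per comparison of 2 groups, for Mt1 and Mt2 the 5 named genes of most similar pattern (1 of them is not reported here), and up to 2 passing examples of each further list. Mt3 was named after its values were seen. The genes and lists were chosen with earlier results of these data known. Replicate numbers were checked as pairs: same-numbered arrays correlated (deviations from group means) from 0.055 to 0.392, above 0.1 in 23 of 24 pairs. Same-numbered arrays also shared a slide, and arrays of other groups on the same slide with other numbers correlated from -0.027 to 0.311. Number and slide are thus not fully separate in this check. The labels name no shared litter or day, and the numbers were to count as pairs if all 24 were above 0.1, so the fit without pairs was kept and the replicate block is an alternative. Alternatives were other scaling, normexp (offset 50) with quantile normalization, the value table (log2 of score + 1), no filter on dim probes, outlier spots kept, replicate or slide as a block, each slide alone, the 2 groups alone, other probes, and leaving out each array.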

Additional observations from a re-analysis of the deposited data

Results flagged for a closer look

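The dimmer Mt1 probe had 1 array far above the other 3 in each of 2 groups. Fed mFoxO-TKO replicate 3 read 1.155, against -1.402 for its nearest neighbour and -1.917 for the lowest array of that group. Fed WT replicate 3 read -0.6453, against -2.814 for its nearest neighbour and -2.977 for the lowest. The gap made up 0.832 and 0.93 of the range of these groups, above the limit of Dixon's test for 4 samples. Chance alone gives such a gap in about 1 of 20 groups, and 2 of 40 groups showed one. The brighter Mt1 probe showed no such gap on these arrays, at 5.98 and 4.98.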

How the results depend on the processing

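The fasting rises of Mt1 and Mt2 in WT muscle kept their direction and passed in all other settings (2.70 to 4.43 for Mt1 and 3.51 to 3.94 for Mt2), as did that of Slc39a14 (2.60 to 3.33). In mFoxO-TKO muscle the Mt1 rise was not called with normexp and quantile normalization (1.12), within slide 1 (0.84), with the 2 groups alone (1.56, adjusted p = 0.0555) or by the other probe (2.25), and the Mt2 rise with no filter on dim probes (1.96), within slide 1 (1.21), with the 2 groups alone (1.96) or without fed mFoxO-TKO replicate 3 (1.82), while it was called in the other leave-outs (1.39 to 2.39 over all 16). Between fed genotypes Mt1 passed with scaling on probes above background on all arrays (1.28), in the authors' table (1.28), with slide as a block (1.31), within slide 1 (1.96) and without fed mFoxO-TKO replicate 4 (1.68), but in no other leave-out (1.06 to 1.68 over all 16). Mt2 was not called within slide 2 (1.44), with the 2 groups alone (2.54) or without fed mFoxO-TKO replicate 1 (2.27) or fed WT replicate 2 (2.46), and was called in the other leave-outs (2.11 to 3.11 over all 16). The Mt1 difference between fasted genotypes changed sign with normexp (-0.34), with outlier spots kept (-0.021), within slide 1 (-1.97e-04), by the other probe (-0.77) and leaving out 1 array (-0.075 to 0.095). Of the 16 leave-outs, the interactions passed in the one without fed mFoxO-TKO replicate 4 alone (Mt1 -1.67, Mt2 -2.34), and all leave-outs ran from -1.67 to -1.05 for Mt1 and from -2.34 to -1.34 for Mt2. Of the 7 genes, 5 passed with fasting in WT muscle (3 within slide 1, 6 with the other scaling, normexp or the 2 groups alone) and 5 in mFoxO-TKO muscle (2 with no dim filter or the 2 groups alone, 0 within slide 1, 2 to 5 leaving out 1 array). Between fed genotypes 1 passed (2 with the other scaling, the authors' table, slide as a block or within slide 1, 0 within slide 2 or with the 2 groups alone, 0 to 2 leaving out 1 array). Between fasted genotypes 0 passed (1 within slide 1, 0 to 1 leaving out 1 array), and in the interaction 0 (0 to 2). Totals over all genes moved as well. Fasting in mFoxO-TKO muscle was called for 116 of 19590 genes within slide 1 and 1797 of 20994 within slide 2. It was called for 979 of 21280 with the 2 groups alone and 1040 of 36717 with no dim filter. In WT fasting 843 of 19590 passed within slide 1, and between fed genotypes 32 of 20994 within slide 2. The replicate block gave Mt2 changes of 1.96 with an adjusted p = 0.0112 in mFoxO-TKO fasting and changed no call of the 7 genes, while 1 of the 17 other zinc genes passed in mFoxO-TKO fasting (0 without it). It moved the count over all genes to 6407 in WT fasting (4514 without) and 3360 in mFoxO-TKO fasting (1857 without). The authors' table, which holds the dimmer Mtf1 probe, gave Mtf1 0.057 (WT fasting), 0 (mFoxO-TKO fasting), -0.023 (fed genotypes), -0.080 (fasted genotypes) and -0.057 (interaction), and the other probe gave 0.023 (mFoxO-TKO fasting) and -0.032 (fed genotypes). The small Slc30a1 changes turned sign in WT fasting with the other scaling (-0.12), the authors' table (-0.060), outlier spots kept (-0.015), within slide 2 (-0.11) and leaving out 1 array (-0.049 to 0.14), in mFoxO-TKO fasting within slide 1 (0.026) and leaving out 1 array (-0.28 to 0.055), between fed genotypes within slide 2 (0.041) and leaving out 1 array (-0.17 to 0.12), and in the interaction leaving out 1 array (-0.32 to 0.017). Signs also turned for the Slc30a2 interaction within slide 2 (0.52) and leaving out 1 array (-0.42 to 0.13), the Slc39a1 fed difference within slide 2 (-0.019) and interaction leaving out 1 array (-0.16 to 0.34), and the Slc39a14 fed difference in the authors' table (-0.012), within slide 1 (-0.037) and leaving out 1 array (-0.061 to 0.088). Scaling on probes above background on all arrays moved the median of all genes in WT fasting to -0.13 (0.03 otherwise), with 35.1% of called genes higher (55.5% otherwise). The causes were not tested, and the fits within a slide had 2 mice per group.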

Other observations

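Of 15 tested genes of copper and iron handling 0 passed with fasting in mFoxO-TKO muscle (limma, 1 at an unadjusted p under 0.05, median 0.06), where 8.73% of all genes passed, and 3 rose and 4 fell in WT muscle (median 0.10), where 11.8% of all genes rose and 9.44% fell. Tfrc, the transferrin receptor gene through which cells take up iron, fell by 1.54 ± 0.25 in fasted WT muscle (adjusted p = 5.07e-04), and its interaction of 1.57 ± 0.36 passed (adjusted p = 0.0483). Slc40a1, which codes for the iron exporter ferroportin, rose by 1.37 ± 0.29 in fasted WT muscle (adjusted p = 0.00329). In fasted mFoxO-TKO against fasted WT muscle Tfrc was higher by 1.92 ± 0.25 (adjusted p = 1.51e-04) and Slc40a1 was lower by 2.37 ± 0.29 (adjusted p = 7.59e-05), among 2 higher and 2 lower genes of the list (4.73% of all genes were higher and 4.86% lower). In fed mice, where 1.01% of all genes passed, 1 of the 15 did, Slc40a1, at -1.29 ± 0.29 (adjusted p = 0.0451).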
